A study of Mus musculus with 40 samples.

Results

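The genes described here are the 10 chains of cytokine receptors through which T cells read polarizing signals: *Il12rb1*, *Il12rb2*, *Il18r1*, *Il18rap*, *Il1rl1*, *Ifngr1*, *Ifngr2*, *Il6ra*, *Il6st* and *Il10rb*. They were taken by symbol, whatever their values, and all 10 were found among the 21950 genes of the table. Over the groups, the chains of the IL-12 receptor were low in resting Tconvs and high in activated Tconvs and in iTregs, and *Il12rb2* rose further in restimulated iTregs and stayed low in tTregs. *Il1rl1*, which encodes ST2, reached substantial levels in tTregs alone, whereas *Ifngr1* and *Il6st* were highest in tTregs and *Il6ra* in resting Tconvs.

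IL-12 binds a pair of chains, IL-12Rβ1 (*Il12rb1*, shared with the IL-23 receptor) and the signaling chain IL-12Rβ2 (*Il12rb2*), and acts through STAT4 in Th1 differentiation. IL-18 binds IL-18Rα (*Il18r1*) with the accessory chain *Il18rap* and signals through MyD88, as does ST2 (*Il1rl1*), the receptor of IL-33, which is known on Th2 cells and on a part of the tissue Tregs. IFN-γ uses *Ifngr1* and *Ifngr2*, IL-6 uses *Il6ra* with the common chain gp130 (*Il6st*) and STAT3 and is a signal of Th17 differentiation, and *Il10rb* is the chain shared by the receptors of IL-10, IL-22 and the type III interferons.

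RNA-seq was made from CD4 T cells of Foxp3 reporter mice on a C57BL/6 background, in 8 groups of 3 libraries, 24 in all. Tconvs and tTregs (nTreg in the labels) came from the spleens of mice aged 2 to 4 months and were either resting or activated through CD3 and CD28. iTregs were induced from naive CD4 T cells of 6-week-old mice by 4 days of stimulation through CD3 and CD28 together with TGF-β (2 ng per ml) and IL-2 (200 U per ml). They were sorted on the Foxp3 reporter, rested for 1 day with IL-2 and then left resting or restimulated through CD3 and CD28. Restimulation was without inhibitor, with CM-4620, an inhibitor of the store-operated calcium channel (ORAIinh in the sample labels), or with cyclosporine A (CsA), an inhibitor of calcineurin. The methods of the paper name Foxp3-GFP mice for Tconvs and tTregs, and either Foxp3-GFP or Foxp3-RFP for iTregs. Which of these the iTregs sequenced here carried is not given there. The times of activation before RNA-seq and the doses of both inhibitors are not given in the sources used here (for staining, restimulation lasted 2 days), the libraries with CsA are labelled as Treg by cell type although their titles name iTregs, and nothing says that the 3 libraries of a group came from separate mice or cultures, so that p-values measure the spread between these libraries, which may be technical. In bulk RNA a lower share of cells that express a gene and less RNA per cell cannot be told apart.

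Values are given as normalized counts, the deposited gene counts divided by 1 size factor per library. Between 5256800 and 15685234 reads per library fell on genes, and 3 reads, taken as the smallest number that could be told from absence, were worth between 2.12 and 5.45 normalized counts. *Foxp3* averaged between 10.4 and 33.8 normalized counts in the Tconv groups, 7312 and 7537 in the tTreg groups and between 710.3 and 1280.0 in the iTreg groups, and *Cd3e*, a chain of the T cell receptor complex, had at least 1749 in every library. Of the 5 B cell markers in the table, *Ms4a1* and *Pax5* were at 0 in all 24 libraries. The summed list was between 89.0 and 136 normalized counts in tTregs, where *Cd79b* averaged 124 at rest and 100.1 after activation, and at most 44.3 in the other groups, and its part in the differences of tTregs was not tested. Differences were tested with limma on the log2 of the normalized count plus 1 with Benjamini-Hochberg adjustment over all genes tested, and a gene counts as called when its adjusted p was under 0.05 and its log2 fold change was more than 0.5 in size. Fold changes below are on this scale, with the standard error (SE) of the fit. A fit takes 1 spread per gene from all its groups, so an SE or interval also carries the scatter of groups outside the comparison.

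Several of the genes are neighbours in the mouse genome (GRCm38). *Il1rl1*, *Il18r1* and *Il18rap* follow each other in this order on the plus strand of chromosome 1, within 122136 bases (chr1:40429570-40551705) that hold no other protein-coding gene, and *Il18r1* starts 137 bases after the last base of *Il1rl1*. *Il10rb* and *Ifngr2* lie on the plus strand of chromosome 16 on either side of *Ifnar1*, within 159460 bases (chr16:91406164-91565623). *Il12rb2* (chr6:67291318-67376188, minus strand) shares 40.0% of its exon bases with *Serbp1* on the other strand, and the library kit does not mark strand, so that reads there could not be assigned by direction. *Serbp1* averaged 2330.0 normalized counts in resting Tconvs, where *Il12rb2* was at 20.4, and its group means ranged up to 4573, in activated Tconvs. The part of the shared bases in the counts of *Il12rb2* was not tested. *Il10rb* shares 14.9% of its exon bases with the read-through gene *Gm21970* on the same strand, which is listed at 0 in all 24 libraries.

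RefSeq promoter windows (GRCm38.p6), which run from 250 bases before to 50 bases after a start site, were found for 8 of the 10 genes, *Il12rb1* and *Il10rb* being without one. They were searched on both strands for 4 short motifs: GGAAA, the core recognised by NFAT, TGANTCA for AP-1, TTCNNNGAA for STAT factors and GGTGTGA for T-box factors, of which 61.3%, 7.81%, 8.30% and 3.98% of all 32851 windows hold at least 1. The stretches before the start site are shown for *Il12rb2*, the gene with the largest rise in restimulated iTregs, and for the 3 neighbours on chromosome 1. Over the 24 libraries, Pearson r of log2 values was 0.84 for *Il18r1* with *Il18rap* and 0.75 for *Il18r1* with *Il1rl1*. It was 0.40 for *Il18rap* with *Il1rl1*. The stretches lie at chr6:67376189-67376438 (minus strand, *Il12rb2*), chr1:40429320-40429569 (*Il1rl1*), chr1:40465416-40465551 (*Il18r1*, the gap between *Il1rl1* and *Il18r1*) and chr1:40515112-40515361 (*Il18rap*), the last 3 on the plus strand, and capitals mark the matches.
Il12rb2: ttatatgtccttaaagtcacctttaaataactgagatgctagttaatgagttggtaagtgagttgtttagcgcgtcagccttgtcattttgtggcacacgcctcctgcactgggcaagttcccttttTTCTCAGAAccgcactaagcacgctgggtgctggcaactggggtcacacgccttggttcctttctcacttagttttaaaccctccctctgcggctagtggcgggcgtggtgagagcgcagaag
Il1rl1: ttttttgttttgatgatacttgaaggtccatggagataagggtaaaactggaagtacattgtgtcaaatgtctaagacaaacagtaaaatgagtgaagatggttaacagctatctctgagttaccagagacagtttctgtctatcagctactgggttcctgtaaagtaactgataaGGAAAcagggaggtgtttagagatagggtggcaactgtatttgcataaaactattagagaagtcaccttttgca
Il18r1: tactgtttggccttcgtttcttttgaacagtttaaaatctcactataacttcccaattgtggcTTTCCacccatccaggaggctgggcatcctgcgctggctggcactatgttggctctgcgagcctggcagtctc
Il18rap: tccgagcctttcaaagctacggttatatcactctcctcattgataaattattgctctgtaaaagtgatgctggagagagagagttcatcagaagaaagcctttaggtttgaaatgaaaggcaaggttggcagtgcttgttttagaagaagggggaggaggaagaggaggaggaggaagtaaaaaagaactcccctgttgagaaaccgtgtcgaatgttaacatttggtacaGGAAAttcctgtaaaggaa
The single match in *Il12rb2* is of the STAT type and starts 123 bases before the start site. The matches in the other printed stretches are all of the GGAAA type, on the opposite strand in *Il18r1*. Another window of *Il18r1*, not printed, also held 2 matches of the STAT type. None of the 8 genes had a match to the AP-1 or T-box motif in its windows, and *Ifngr1* and *Il6ra* had no match to any of the 4. A match is a description of the letters and not of binding.

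**Figure D1:**
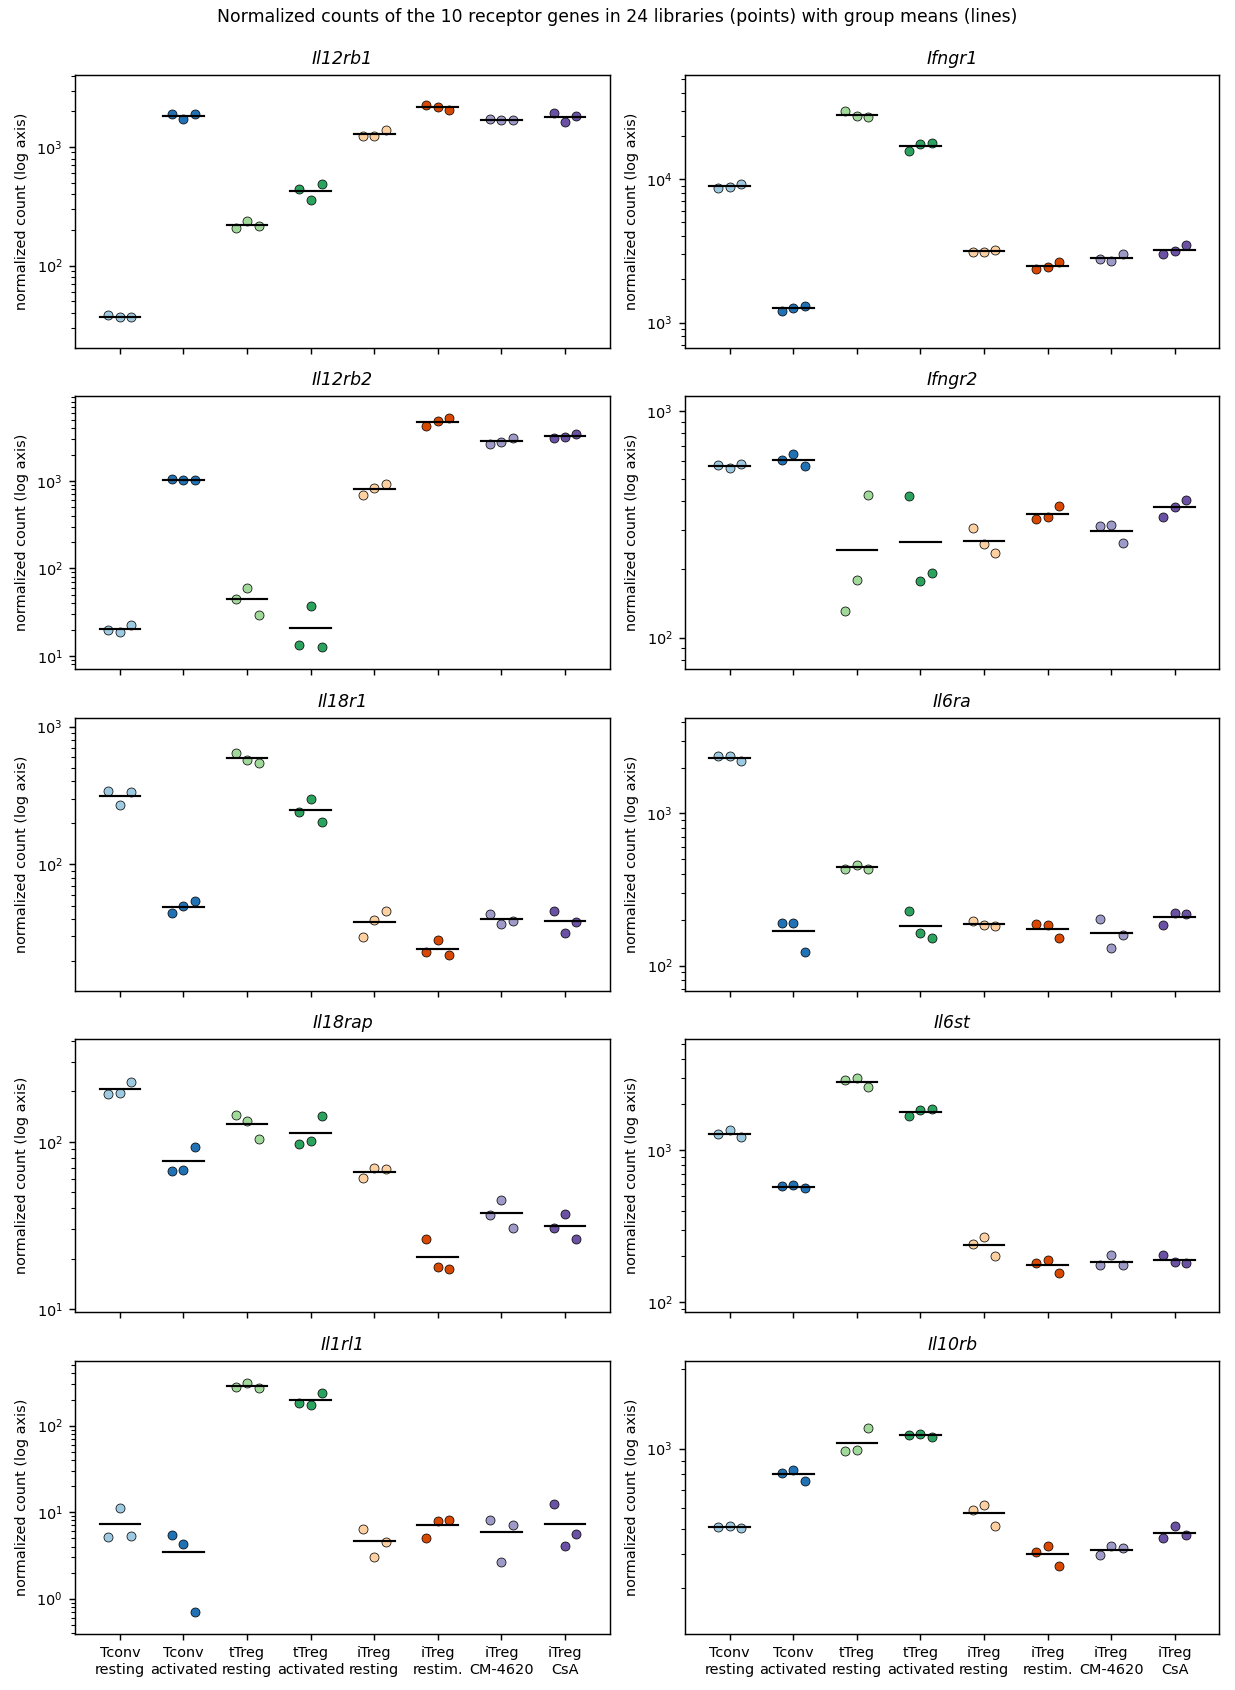
Normalized counts (log axis) of the 10 receptor genes by group, with 1 point per library (3 per group) and a line at the group mean. *Il12rb2* spans from a mean of 20.4 in resting Tconvs to 4743 in restimulated iTregs, *Il1rl1* is high in the 6 tTreg libraries only, and *Ifngr2* is scattered in the tTregs between 131 and 425.

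On activation of Tconvs 8 of the 10 genes were called, 3 higher (*Il12rb1*, *Il12rb2*, *Il10rb*) and 5 lower (*Il18r1*, *Il18rap*, *Ifngr1*, *Il6ra*, *Il6st*), where 50.2% of all 11495 genes tested were called, 24.5% higher and 25.7% lower. In tTregs 6 were called, 1 higher (*Il12rb1*) and 5 lower, against 21.9% of all genes (11.9% higher, 10% lower). The difference between both responses, tested as an interaction, passed the thresholds for 7 genes, 4 with a higher and 3 with a lower value in tTregs, against 34.7% of all genes (17.7% and 17%). On restimulation of iTregs 5 of the 9 genes tested were called, 2 higher (*Il12rb1*, *Il12rb2*) and 3 lower (*Il18r1*, *Il18rap*, *Il10rb*), against 12.8% of 11105 genes (6.7% higher, 6.13% lower), *Il1rl1* being too low there to be tested. The median log2 fold change of the receptor genes tested was -1.08, -0.61 and -0.33 in Tconvs, tTregs and iTregs, and that of all genes was -0.04, 0.00 and -0.01.

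**Figure D2:**
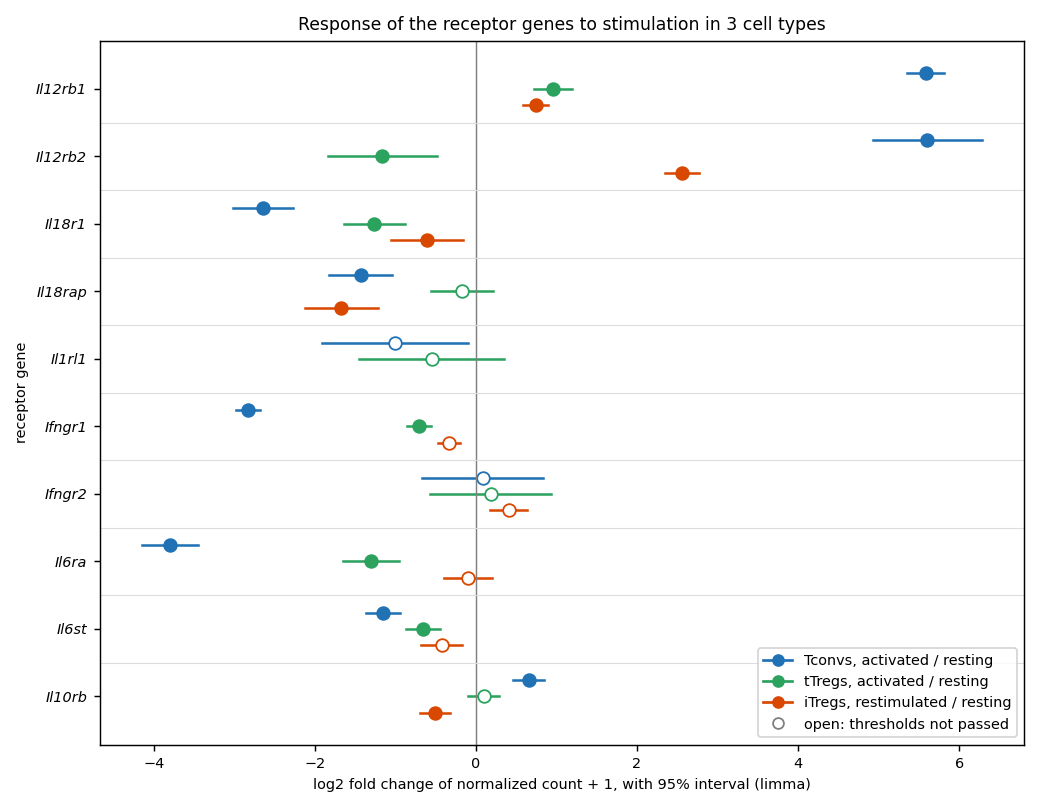
Log2 fold change on stimulation (x axis, limma, with 95% intervals) of each receptor gene in Tconvs, tTregs and iTregs, with filled points where both thresholds were passed. *Il12rb2* is the only gene called in opposite directions in Tconvs (5.61) and tTregs (-1.16), and *Il10rb* the only one called in opposite directions in Tconvs (0.65) and iTregs (-0.51).

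*Il12rb1*, the chain shared by the receptors of IL-12 and IL-23, had 38.1, 36.6 and 36.9 normalized counts in the 3 resting Tconv libraries and 1884, 1726 and 1886 after activation. In tTregs it had 206, 236 and 214 at rest and 440.4, 359 and 487 after activation, so that neither cell type overlapped between states. The log2 fold change was 5.58 (SE 0.11, adjusted p = 1.99e-14) in Tconvs and 0.96 (SE 0.11, adjusted p = 2.15e-05) in tTregs, 48.0-fold and 1.94-fold. The response of tTregs was lower by a log2 difference of -4.63 (SE 0.15, adjusted p = 3.05e-11). At rest tTregs exceeded Tconvs 5.75-fold (adjusted p = 7.96e-11), and after activation they were 4.30-fold below them (adjusted p = 8.46e-10).

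*Il12rb2*, the signaling chain of the IL-12 receptor, had 19.5, 18.8 and 22.8 normalized counts in resting and 1047, 1028 and 1035 in activated Tconvs. In tTregs it had 44.4, 59.7 and 29.6 at rest and 13.5, 36.9 and 12.7 after activation, so that the second activated library lay among the resting ones. The rise in Tconvs was 48.7-fold (log2 fold change 5.61, SE 0.32, adjusted p = 1.36e-09), about that of its partner chain. In tTregs the log2 fold change was -1.16 (SE 0.32, adjusted p = 0.0117), a call that was lost without resting replicate 2 (-0.93, adjusted p = 0.0564), without activated replicate 1 (-0.94, adjusted p = 0.0542), without activated replicate 3 (-0.91, adjusted p = 0.0569) and in a fit of these 2 groups alone (adjusted p = 0.104). The difference between both responses was -6.77 (SE 0.45, adjusted p = 3.75e-08), and activated tTregs were 53.0-fold below activated Tconvs. At rest *Il12rb2* was 2.06-fold higher in tTregs than in Tconvs (adjusted p = 0.0132), which quantile normalization (log2 fold change 0.72, adjusted p = 0.0891) and the omission of tTreg resting replicate 2 (0.81, adjusted p = 0.0682) did not keep.

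Resting iTregs held both chains nearer to the level of activated than of resting Tconvs. The values lay below those of activated Tconvs, but neither difference was called. *Il12rb1* had 1250.0, 1244 and 1404 normalized counts and *Il12rb2* 683, 823 and 911 in the 3 resting iTreg libraries, which is above every Tconv and tTreg library at rest and below every activated Tconv library. Against resting Tconvs the rise was 34.0-fold for *Il12rb1* (adjusted p = 1.41e-14) and 37.6-fold for *Il12rb2* (adjusted p = 1.14e-09), in a comparison that called 8 of the 10 receptor genes, 2 higher and 6 lower, and 63.6% of all genes (32.8% higher, 30.8% lower). Against activated Tconvs 3 of the 10 genes were called, 1 higher and 2 lower, where 41.6% of all genes were (22.9% higher, 18.7% lower). The count was 5 with recomputed size factors, edgeR, DESeq2, the adjusted p alone or without iTreg resting replicate 3 and 6 with quantile normalization, so it does not stand below the share of all genes under each setting. Against activated Tconvs the log2 fold changes were -0.50 for *Il12rb1* (95% interval -0.73 to -0.26, adjusted p = 0.00133) and -0.37 for *Il12rb2* (-1.06 to 0.31, adjusted p = 0.343). The interval of *Il12rb2* also carries its scatter in tTregs. The SD of its log2 values was 0.50 and 0.83 in resting and activated tTregs, 0.21 in resting iTregs and 0.01 in activated Tconvs. The size for *Il12rb1* was just under the fold threshold, and this gene was called lower under 7 of the other settings. Against resting tTregs, where 9 of the 10 genes and 63.4% of all genes were called (2 and 32.3% higher, 7 and 31.1% lower), *Il12rb1* was 5.92-fold and *Il12rb2* 18.3-fold higher.

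Restimulation of iTregs raised *Il12rb2* to the highest level it had in any group. The 3 restimulated libraries had 4260.4, 4793 and 5176 normalized counts, 5.90-fold above rest (log2 fold change 2.56, SE 0.10, adjusted p = 1.85e-10), and each was above every other library. *Il12rb1* rose less, to 2274, 2186 and 2046 normalized counts, 1.67-fold (0.74, SE 0.07, adjusted p = 2.37e-06). Compared with activated Tconvs, where 7 of the 10 genes and 44.3% of all genes were called (2 and 24.4% higher, 5 and 20% lower), restimulated iTregs had 4.56-fold more *Il12rb2* (adjusted p = 3.28e-07), while the log2 fold change of *Il12rb1* was 0.24 (adjusted p = 0.0290). Compared with activated tTregs, where 8 of the 10 genes and 59.3% of all genes were called (2 and 30.5% higher, 6 and 28.8% lower), *Il12rb2* was higher by 7.92 on the log2 scale (SE 0.26, adjusted p = 2.03e-16). The response of *Il12rb2* in iTregs was larger than in tTregs by 3.72 (SE 0.37, adjusted p = 2.47e-07), in a comparison of responses that called 4 of the 10 genes and 21.3% of all genes (2 and 9.01% higher, 2 and 12.3% lower), and smaller than in Tconvs by a difference of -3.04 (SE 0.37, adjusted p = 6.36e-07), where 7 genes and 44.2% of all genes were called (4 and 21.7% higher, 3 and 22.6% lower).

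Both inhibitors left *Il12rb2* between rest and restimulation. With CM-4620 it had 2645, 2809 and 3105 normalized counts and with CsA 3073, 3149 and 3466, all below the lowest restimulated and above the highest resting library. Against restimulated iTregs the log2 fold change was -0.73 with CM-4620 (SE 0.10, adjusted p = 0.000280), 1 of 2 receptor genes called where 3.3% of all genes were (1.5% higher, 1.79% lower), and -0.55 with CsA (SE 0.10, adjusted p = 0.00318), the only receptor gene called where 2.92% of all genes were (1.57% higher, 1.35% lower). With CsA the size fell under the threshold without restimulated replicate 3 (-0.49, adjusted p = 0.0185), and in 1 fit of all 24 libraries neither was called (adjusted p = 0.165 and 0.333), the cause of which was not tested. Against resting iTregs *Il12rb2* remained 3.56-fold higher with CM-4620 (adjusted p = 1.96e-08) and 4.03-fold higher with CsA (adjusted p = 3.46e-09), in comparisons that called 2 of 9 receptor genes each, 1 higher and 1 lower, and 7.1% of all genes with CM-4620 (3.97% higher, 3.13% lower) and 9.43% with CsA (5.19% higher, 4.24% lower).

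*Il12rb1* had 1719, 1703 and 1688 normalized counts with CM-4620 and 1933, 1622 and 1838 with CsA, all below the 3 restimulated libraries. The adjusted p was 0.00696 with CM-4620 and 0.0292 with CsA, but the log2 fold changes of -0.35 and -0.27 did not reach 0.5. The restimulated group is shared by both comparisons, so they are not independent of each other. Between CM-4620 and CsA none of the 9 receptor genes tested was called by limma, by edgeR or by DESeq2, where 0.36% of all genes were called by limma (0.0991% higher, 0.261% lower with CM-4620). An unadjusted p below 0.05 was found for 4 of them, the smallest adjusted p was 0.217, and the log2 difference of *Il12rb2* was -0.18 with a 95% interval from -0.39 to 0.03.

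**Figure D3:**
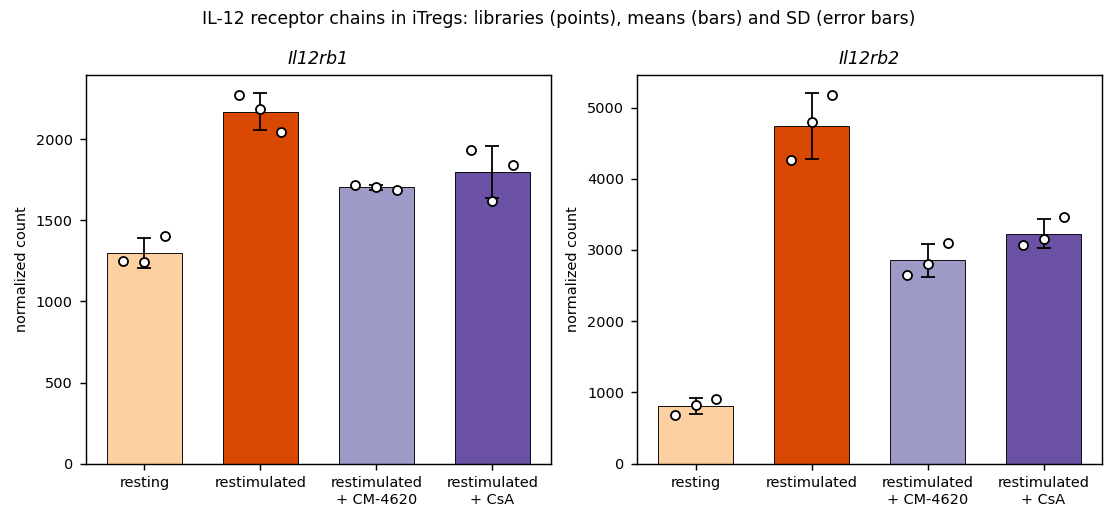
Normalized counts (linear axis from 0) of *Il12rb1* and *Il12rb2* in the 4 iTreg groups, with bars for the mean, error bars for the SD and points for the 3 libraries. *Il12rb2* averages 806 at rest, 4743 after restimulation, 2853 with CM-4620 and 3229.5 with CsA, and *Il12rb1* moves between 1299 and 2169.

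*Il18r1*, the ligand-binding chain of the IL-18 receptor, fell on activation of Tconvs and of tTregs. Its 3 libraries had 339, 271 and 335 normalized counts in resting and 44.0, 50.0 and 53.8 in activated Tconvs, a 6.28-fold fall (log2 fold change -2.65, SE 0.17, adjusted p = 6.86e-09). In tTregs they had 647, 568 and 548 at rest and 238, 299 and 203 after activation, a 2.40-fold fall (-1.26, SE 0.17, adjusted p = 0.000102), with no overlap in either cell type. The fall was smaller in tTregs by 1.39 (SE 0.25, adjusted p = 0.000461), and *Il18r1* was higher in tTregs than in Tconvs both at rest (1.87-fold, adjusted p = 0.000568) and after activation (4.89-fold, adjusted p = 5.27e-08).

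In iTregs *Il18r1* was low throughout, with 29.5, 39.3 and 45.5 normalized counts at rest and 23.2, 28.0 and 21.8 after restimulation. These values are below every Tconv library at rest and every tTreg library, and the resting iTregs were 15.2-fold below resting tTregs (adjusted p = 4.71e-11). The log2 fold change on restimulation was -0.61 (SE 0.21, adjusted p = 0.0392), a weak call that did not hold without resting replicate 2 (-0.58, adjusted p = 0.100), resting replicate 3 (-0.48, adjusted p = 0.143), restimulated replicate 1 (-0.58, adjusted p = 0.0906) or restimulated replicate 3 (-0.54, adjusted p = 0.120), nor with DESeq2 (adjusted p = 0.0983). With the inhibitors it averaged 39.8 (CM-4620) and 38.7 (CsA), and neither difference from restimulated iTregs passed (adjusted p = 0.0593 and 0.0758).

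*Il18rap*, the accessory chain that IL-18 signaling requires, followed a different order. Resting Tconvs had the highest values, 193, 195 and 228 normalized counts, and activated Tconvs had 67.3, 68.1 and 93.4, a 2.70-fold fall (log2 fold change -1.43, SE 0.18, adjusted p = 7.56e-06). In tTregs the values were 145, 134 and 104 at rest and 97.0, 101 and 142 after activation, which overlap, and the change of -0.18 was not called (95% interval -0.57 to 0.21). The difference between both responses was 1.25 (SE 0.26, adjusted p = 0.00141). At rest *Il18rap* was lower in tTregs than in Tconvs (-0.69, adjusted p = 0.00520), opposite to *Il18r1*. After activation it was higher (0.56, adjusted p = 0.0156), but not without Tconv activated replicate 1 (0.48, adjusted p = 0.0637), Tconv activated replicate 2 (0.49, adjusted p = 0.0603) or tTreg activated replicate 3 (0.39, adjusted p = 0.0860).

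Restimulated iTregs had the lowest *Il18rap* of all groups. It went from 61.1, 69.6 and 68.3 normalized counts at rest to 26.2, 17.9 and 17.3, a 3.19-fold fall (log2 fold change -1.67, SE 0.21, adjusted p = 3.55e-05). With CM-4620 it had 36.7, 44.9 and 30.7 and with CsA 30.7, 36.9 and 26.4, all of them above every restimulated library and below every resting one. Against rest the fall was called with both, with log2 fold changes of -0.82 with CM-4620 (adjusted p = 0.0153) and -1.07 with CsA (adjusted p = 0.00233), the former not without resting replicate 2 (adjusted p = 0.0523) or CM-4620 replicate 3 (adjusted p = 0.0692). Against restimulated iTregs it was higher with CM-4620 (0.85, SE 0.21, adjusted p = 0.0239), which was lost without restimulated replicate 2 (0.77, adjusted p = 0.0939), restimulated replicate 3 (0.74, adjusted p = 0.0950), CM-4620 replicate 1 (0.85, adjusted p = 0.0687) or CM-4620 replicate 2 (0.71, adjusted p = 0.111) and with DESeq2 (adjusted p = 0.0641). The value with CsA was 0.60 (adjusted p = 0.101). The fall of *Il18rap* on restimulation of iTregs exceeded that of tTregs by a difference of -1.50 (SE 0.28, adjusted p = 0.000487), whereas its difference from Tconvs was -0.24 (adjusted p = 0.507).

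*Il1rl1*, the IL-33 receptor ST2, was a tTreg gene in these libraries. The 3 resting tTreg libraries had 279, 313 and 271 normalized counts, and the activated ones had 183, 173 and 236. In the other 18 libraries it ranged from 0.708 to 12.3, which is 1 to 12 reads. At rest it was 37.0-fold higher in tTregs than in Tconvs (log2 fold change 5.21, SE 0.42, adjusted p = 9.39e-08) and 52.7-fold higher than in iTregs (adjusted p = 1.21e-08), folds whose size rests on those few reads. Its activated tTreg libraries were all below the resting ones, but the log2 fold change of -0.55 was not called by limma (95% interval -1.46 to 0.35), whereas edgeR, DESeq2 and a fit of these 2 groups alone called it. Mast cells and basophils also express ST2: of their markers *Mcpt8*, *Cpa3* and *Fcer1a* were at 0 in all 6 tTreg libraries, and the summed list, then *Kit* alone, was between 47.2 and 85.4 normalized counts in tTregs and at most 14.1 elsewhere, and its part in the result was not tested. *Il1rl1* and *Il18r1*, adjacent and on the same strand, both were highest in resting tTregs, but resting Tconvs had 315 normalized counts of *Il18r1* and 7.22 of *Il1rl1*.

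*Ifngr1*, the ligand-binding chain of the IFN-γ receptor, was the most abundant of the 10 genes per kilobase of exon in 6 of the 8 groups. Resting tTregs had 29829.9, 27415.5 and 26986 normalized counts and activated tTregs 15845, 17641 and 18012. Resting Tconvs had 8734, 8790.4 and 9209.8 and activated Tconvs 1203, 1263 and 1294. No group overlapped with another among these, and the fall on activation was 7.11-fold in Tconvs (log2 fold change -2.83, SE 0.07, adjusted p = 2.58e-13) and 1.64-fold in tTregs (-0.71, SE 0.07, adjusted p = 6.26e-06). The fall was smaller in tTregs by 2.12 (SE 0.10, adjusted p = 9.11e-10). tTregs exceeded Tconvs 3.15-fold at rest (adjusted p = 7.33e-11) and 13.7-fold after activation (adjusted p = 2.72e-14).

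iTregs held *Ifngr1* between activated and resting Tconvs. The resting libraries had 3085, 3111 and 3191 normalized counts, 8.96-fold below resting tTregs (adjusted p = 8.18e-14) and 2.50-fold above activated Tconvs (adjusted p = 9.75e-10). After restimulation they had 2371, 2452 and 2637, a change of -0.33 (SE 0.06, adjusted p = 0.00125) that was smaller than the fold threshold. With CsA *Ifngr1* was back at 3029.5, 3130.2 and 3464, 0.37 above restimulated iTregs (SE 0.06, adjusted p = 0.00277) and again under the fold threshold, and with CM-4620 at 2783, 2689.8 and 3026 (0.19, adjusted p = 0.0961).

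*Ifngr2*, the signaling chain of the same receptor, moved little. It had 580.1, 561 and 584 normalized counts in resting and 611, 648 and 572 in activated Tconvs, a log2 fold change of 0.08 with a 95% interval from -0.67 to 0.84. The interval is wide through the shared spread of the fit. The SD of log2 values was 0.03 and 0.09 in resting and activated Tconvs, and 0.88 and 0.69 in resting and activated tTregs. In tTregs *Ifngr2* was scattered, with 131, 179 and 425 at rest and 423, 178 and 193 after activation, so that the spread within a state exceeded the difference between states. All tTreg libraries were nevertheless below the Tconv libraries, by -1.41 at rest (SE 0.35, adjusted p = 0.00358) and -1.32 after activation (SE 0.35, adjusted p = 0.00466). In iTregs it had 304, 259 and 237 at rest and 333, 341 and 381 after restimulation, a change of 0.40 (adjusted p = 0.0110) under the fold threshold. Restimulated iTregs were below activated Tconvs (-0.79, adjusted p = 0.0262), but not without Tconv activated replicate 1 (-0.79, adjusted p = 0.0565) or 2 (-0.75, adjusted p = 0.0678) or without iTreg restimulated replicate 1 (-0.76, adjusted p = 0.0664) or 2 (-0.77, adjusted p = 0.0621).

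*Il6ra*, which binds IL-6, was a gene of resting Tconvs, with 2362, 2365 and 2214 normalized counts. Activated Tconvs had 189, 191 and 123, a 14.0-fold fall (log2 fold change -3.80, SE 0.16, adjusted p = 6.61e-11), the largest fall of the 10 genes. tTregs had 434, 461 and 434 at rest and 228, 165 and 151 after activation, a 2.48-fold fall (-1.31, SE 0.16, adjusted p = 4.35e-05). The fall in tTregs was smaller by 2.50 (SE 0.23, adjusted p = 1.05e-06). Activated Tconvs, activated tTregs and the 4 iTreg groups then lay together, with means between 164 and 208 normalized counts and overlapping libraries. In iTregs its log2 fold change on restimulation was -0.10 and not called (95% interval -0.40 to 0.20), and their response differed from that of tTregs by 1.21 (adjusted p = 0.000648) and from that of Tconvs by 3.70 (adjusted p = 3.22e-11).

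*Il6st*, or gp130, the signaling chain that IL-6 shares with LIF, oncostatin M and IL-11, was ordered tTregs, Tconvs, iTregs. It had 2888, 2982 and 2597 normalized counts in resting and 1677, 1829 and 1849 in activated tTregs. It had 1274, 1356 and 1212 in resting and 576, 587 and 562 in activated Tconvs. No groups overlapped among these 4, and the log2 fold changes on activation were -0.66 in tTregs (SE 0.10, adjusted p = 0.000174) and -1.15 in Tconvs (SE 0.10, adjusted p = 1.05e-07), with a difference of 0.49 (adjusted p = 0.0112) just under the fold threshold. Resting iTregs had 242, 266 and 200.3 normalized counts, with a log2 fold change of -3.58 against resting tTregs (adjusted p = 4.23e-13) and -2.44 against resting Tconvs (adjusted p = 1.13e-11). After restimulation they had 181, 189 and 154, a change of -0.43 (SE 0.12, adjusted p = 0.0149) that did not reach the fold threshold.

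*Il10rb*, the chain shared by the IL-10 and IL-22 receptors, rose on activation of Tconvs and fell on restimulation of iTregs. It had 508, 510.2 and 504 normalized counts in resting and 813, 833 and 754 in activated Tconvs (log2 fold change 0.65, SE 0.09, adjusted p = 1.65e-05). tTregs were highest, with 979.7, 987 and 1191 at rest and 1122, 1139 and 1106 after activation, which overlap (0.10, 95% interval -0.09 to 0.29). The difference of response between tTregs and Tconvs was -0.56 (adjusted p = 0.00306), or -0.46 without tTreg resting replicate 3, which is below the fold threshold. In iTregs *Il10rb* went from 587, 614 and 514 to 409, 429 and 362 (-0.51, SE 0.09, adjusted p = 0.000408), a size that fell below 0.5 with quantile normalization (-0.49) and without resting replicate 1 (-0.49), resting replicate 2 (-0.46) or restimulated replicate 3 (-0.44). The response of iTregs was lower than that of Tconvs by a difference of -1.17 (SE 0.12, adjusted p = 5.03e-08) and than that of tTregs by -0.61 (SE 0.12, adjusted p = 0.000649). With CM-4620 it had 399, 429 and 422 and with CsA 463, 513 and 473, and neither group was called against restimulated iTregs (adjusted p = 0.764 and 0.0650).

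At rest all 10 genes were called between tTregs and Tconvs, 7 higher in tTregs (*Il12rb1*, *Il12rb2*, *Il18r1*, *Il1rl1*, *Ifngr1*, *Il6st*, *Il10rb*) and 3 lower (*Il18rap*, *Ifngr2*, *Il6ra*), where 38.6% of all genes were called (20.5% higher, 18.2% lower). After activation 8 were called, 5 higher and 3 lower, against 48.2% of all genes (25.6% higher, 22.6% lower). Relative to Tconvs, *Il12rb1* and *Il12rb2* were thus higher in tTregs at rest and lower after activation, and *Il18rap* the reverse. Within tTregs, however, *Il12rb1* rose on activation and the change of *Il18rap* was not called. The calls of *Il12rb2* at rest and of *Il18rap* after activation were lost under some settings, as given above. *Il6ra* (0.11, 95% interval -0.24 to 0.46) and *Il10rb* (0.49, 95% interval 0.30 to 0.68) did not pass.

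The chains of a receptor were also compared with each other within a library, per kilobase of exon, which sets genes of unequal length on 1 scale. The ratio of *Il12rb2* to *Il12rb1* had a geometric mean of 0.591 in resting and 0.613 in activated Tconvs and 0.667 in resting iTregs, 3 groups whose libraries overlapped. After restimulation of iTregs it was 2.36, under CM-4620 1.81 and under CsA 1.95, so that the signaling chain exceeded its partner in all 9 libraries, and it was 0.212 in resting and 0.0470 in activated tTregs. The ratio of *Ifngr1* to *Ifngr2* was 20.5 in resting and 2.72 in activated Tconvs, 173 and 93.0 in tTregs, and between 9.36 and 15.6 in the iTreg groups. The ratio of *Il6st* to *Il6ra* was below 1 in resting Tconvs (0.431), had group means between 0.710 and 0.979 in the 4 iTreg groups, where resting replicate 2 (1.12) and CM-4620 replicate 2 (1.21) lay above 1, and was above 1 in activated Tconvs (2.72) and in both tTreg groups (4.96 and 7.80). The ratio of *Il18r1* to *Il18rap* was 6.51 in resting and 3.06 in activated tTregs, and 2.14 in resting Tconvs. It was 0.913 in activated Tconvs and 0.794 in resting iTregs, groups whose libraries overlapped. In all 9 restimulated iTreg libraries, with or without inhibitor, it was above 1, with group means up to 1.73. These ratios are descriptions, and the one of *Ifngr1* to *Ifngr2* in tTregs takes its spread from *Ifngr2*. They divide by all annotated exon bases of a gene, so where a ratio crosses 1 depends on that choice of length. In activated tTregs the ratio of *Il12rb2* to *Il12rb1* rests on 7 to 39 reads of *Il12rb2* per library.

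**Figure D4:**
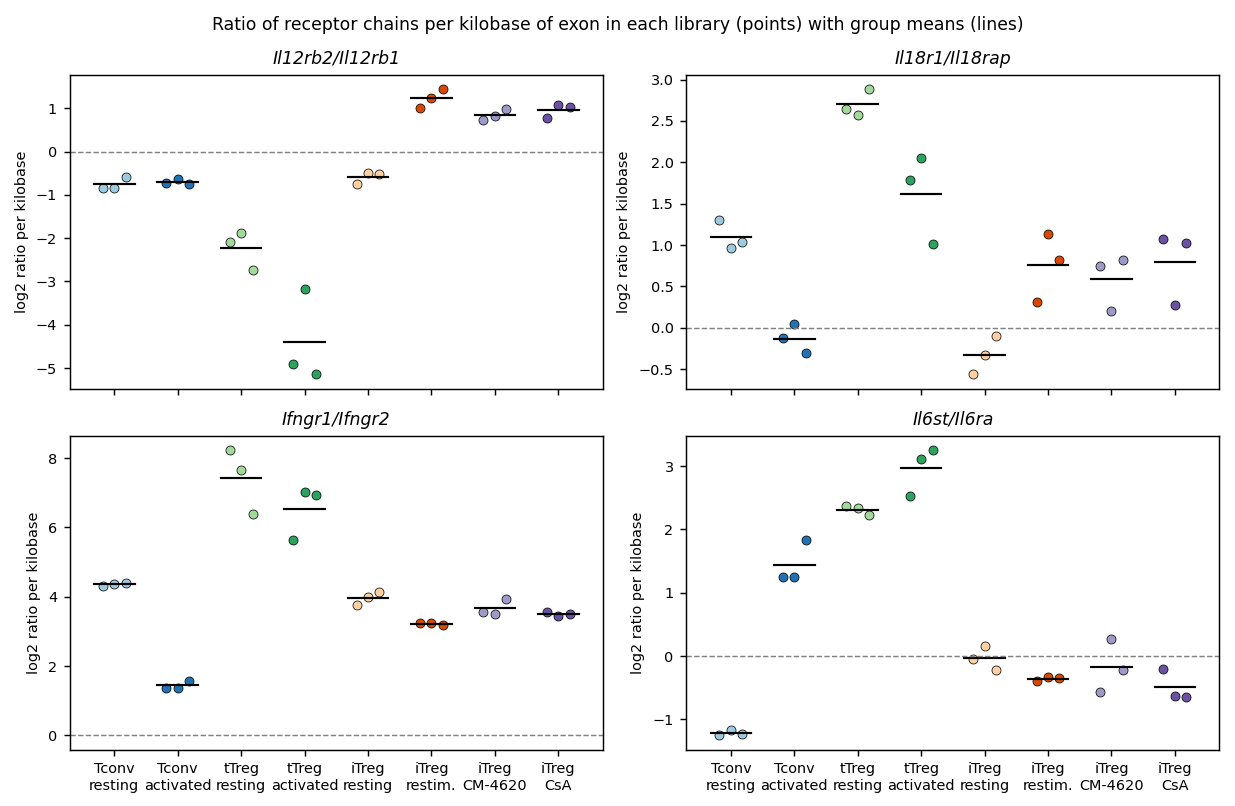
Log2 ratio of the normalized counts per kilobase of exon of paired receptor chains, with 1 point per library and a line at the mean of each of the 8 groups, the dashed line marking equal levels. *Il12rb2*/*Il12rb1* is above the dashed line in the 9 restimulated iTreg libraries, with or without inhibitor, and below it in the other 15.

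The genes around these receptors were taken from 4 lists: 20 partner chains and decoys, 16 ligands, 18 signal transducers and 20 target genes. On activation of Tconvs 7 of the 12 partner chains tested were called (4 higher), 13 of 18 transducers (7 higher) and 15 of 16 targets (10 higher), where 50.2% of all genes were. Of the 16 ligands only 5 were high enough in some libraries to be tested, and all 5 were called higher. *Lif*, *Il10*, *Ebi3* and *Ifng* averaged between 0.625 and 4.85 normalized counts in resting Tconvs, which left little room for a fall. The count of ligands is therefore not read against the share of all genes. *Socs1*, a feedback inhibitor of cytokine signaling, rose from 119 to 857 normalized counts (adjusted p = 1.86e-07) and *Gbp2*, an IFN-γ target, from 639.8 to 52732 (adjusted p = 1.99e-14), while *Jak1* fell from 21349 to 6734. In tTregs 3 of 12 partners, 3 of 18 transducers and 4 of 16 targets were called, against 21.9% of all genes, and the 5 ligands had a median log2 fold change of 0.06, with *Stat4*, which acts behind the IL-12 receptor, at 2539.7 normalized counts at rest and 1586 after activation (adjusted p = 0.000243) and *Gbp2* at 2827 and 5691. The response of *Gbp2* in tTregs differed from that in Tconvs by -5.37 (adjusted p = 2.64e-11). The median log2 fold changes of the 4 lists in Tconvs were 0.45, 2.02, -0.000924 and 1.36, against -0.04 over all genes. The 2.02 of the ligands starts from the low resting counts given above.

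On restimulation of iTregs 3 of 12 partner chains, 1 of 5 ligands, 3 of 18 transducers and 8 of 15 targets were called, against 12.8% of all genes, all of them higher except 2 targets, 1 of which is *Il18rap*. *Il10*, which signals through *Il10rb*, rose from 32.6 to 158 normalized counts (adjusted p = 1.12e-07), *Stat3*, the transducer of IL-6 and IL-10, from 2559 to 4506 (adjusted p = 2.72e-08) and *Il21*, a cytokine of Th17 and follicular helper cells, from 242 to 971 (adjusted p = 1.31e-09). *Stat4* was low in iTregs, at 466 at rest, with log2 fold changes of -2.43 against resting tTregs and -2.23 against resting Tconvs (adjusted p = 3.10e-11 and 5.82e-11). With CM-4620 *Il10* was lower than in restimulated iTregs (59.7, adjusted p = 7.83e-05), as was *Tbx21*, the Th1 transcription factor (59.5 against 175, adjusted p = 0.00773), and *Cxcr3* was higher (824 against 532, adjusted p = 0.000130). With CsA *Jak2* was lower (396 against 567, adjusted p = 0.00986). *Il10* was also lower with CM-4620 than with CsA (59.7 against 118, adjusted p = 0.00739).

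The genes whose log2 values followed *Il12rb2* most closely over the 24 libraries were *Pcgf5*, *Mrps10* and *Tcp1* (Pearson r = 0.978, 0.975 and 0.974 among 11725 genes). For *Il1rl1* they were *Ntn4*, *Slc22a5* and *Dennd4a* (0.968, 0.966 and 0.965), and for *Il10rb* *Herpud1*, *Tgfbr1* and *Pglyrp1* (0.939, 0.936 and 0.933). The libraries of a group share its state, so these values describe the order of 8 groups more than 24 separate points.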

How the data were processed

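RNA-seq libraries were made from CD4 T cells with a modified SMART-seq2 protocol (full-length, polyadenylated RNA, no strand mark). The authors trimmed reads with cutadapt (1.18), aligned them with STAR (2.5.3) to mm10, counted genes with RSEM (1.3.0) on GENCODE models and used DESeq2 (1.26), as the study's methods and processing notes give it. The deposited values are a signal, gene counts divided by 1 size factor per library, and are called normalized counts here. Whole reads were recovered from them, every value being a whole multiple of the value of 1 read within a tolerance of 0.001 reads.

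Genes that reached 10 normalized counts in 3 or more libraries of a fit were tested with limma (3.58.1, R 4.3.3, trend) on log2(normalized count + 1), in 1 fit of the Tconv, tTreg and resting iTreg libraries (11495 genes), 1 of the 12 iTreg libraries (11105 genes) and, for restimulated iTregs against the other cell types, 1 of all 24 (11725 genes). Understated folds of low genes follow from the pseudocount. Benjamini-Hochberg adjustment ran over all genes of a fit. Alternatives were size factors recomputed, quantile normalization, pseudocounts of 0.1 and 5, no filter or a filter of 100, fits of the groups compared only or of all libraries, a replicate block, other thresholds, edgeR (4.0.16, TMM, quasi-likelihood) and DESeq2 (1.42.0) on the recovered reads, and each library left out. The scripts were tested on simulated data. Floors cover counting error only.

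The 10 receptor genes and the 4 lists were chosen with earlier results of these data known. All 10 are named whatever their values. Of a list, at most 4 genes past the thresholds are named per comparison, those with the largest absolute change, and the 3 genes of most similar pattern were taken for *Il12rb2*, *Il10rb* and *Il1rl1*. Exon lengths, positions and overlaps came from GENCODE annotation of GRCm38. Of the 40 samples of the series, those of other assays were not analysed here. The values of some genes of the lists are not reported here.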

Additional observations from a re-analysis of the deposited data

Results flagged for a closer look

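The responses to stimulation differed between cell types, by the interaction test across all genes (limma, adjusted p below 0.05 and absolute difference above 0.5). For tTregs minus Tconvs the log2 difference was -4.63 for *Il12rb1*, -6.77 for *Il12rb2*, -0.56 for *Il10rb*, 1.25 for *Il18rap*, 1.39 for *Il18r1*, 2.12 for *Ifngr1* and 2.50 for *Il6ra*. For iTregs minus tTregs it was 3.72 for *Il12rb2*, 1.21 for *Il6ra*, -0.61 for *Il10rb* and -1.50 for *Il18rap*.

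For iTregs minus Tconvs it was -4.84 for *Il12rb1*, -3.04 for *Il12rb2*, -1.17 for *Il10rb*, 0.72 for *Il6st*, 2.04 for *Il18r1*, 2.50 for *Ifngr1* and 3.70 for *Il6ra*. The tTreg and Tconv responses each enter 2 of these comparisons, and the iTregs were restimulated after an earlier stimulation, so that cell type and history of stimulation cannot be told apart.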

How the results depend on the processing

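Over 18 comparisons, 97 results of the receptor genes were called. Each was recomputed under those of 13 alternatives that differ from its own fit and test its gene, and without each library of the groups compared. A call was lost under at least 1 of these settings for 25 results and under none for 72, and no called result changed direction. Part of this split is set by definition. A log2 fold change above 1 loses every smaller call, and several of the 25 were lost under that setting only, such as *Ifngr1* in activated against resting tTregs. The adjusted p alone can lose none. The filter of 100 left 5 of the 97 untested, 2 of them among the 72, both of *Il18rap* (iTregs restimulated, and with CsA, against rest). Of 77 results that were not called, 27 were called under some setting and 18 changed sign, none of them with a call in the other direction.

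The number of receptor genes called moved by more than 1.5 times as follows, and the cause was not tested unless the alternative itself sets it. With a log2 fold change above 1 it was 3 instead of 6 in activated against resting tTregs, 2 instead of 5 in restimulated against resting iTregs, 0 instead of 2 with CM-4620 and 0 instead of 1 with CsA against restimulated iTregs, 1 instead of 2 with CM-4620 against rest, and 3 instead of 7 in restimulated iTregs against activated Tconvs. With the adjusted p alone it was 5 instead of 3 in resting iTregs against activated Tconvs, 8 in restimulated against resting iTregs, 3 with CsA against restimulated iTregs, and 4 with CM-4620 and 4 with CsA against rest. With a filter of 100 it was 3 in restimulated against resting iTregs and 1 with CM-4620 against restimulated iTregs, with CM-4620 against rest and with CsA against rest. With CM-4620 against restimulated iTregs it was also 1 with no filter, in a fit of the groups compared only and with DESeq2. In resting iTregs against activated Tconvs it was 5 with recomputed size factors, edgeR and DESeq2 and 6 with quantile normalization.

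Leaving out 1 library gave between 3 and 5 called genes in resting iTregs against activated Tconvs (5 without iTreg resting replicate 3), between 3 and 5 in restimulated against resting iTregs (3 without resting replicate 2 or restimulated replicate 3), between 1 and 2 with CM-4620 and between 0 and 1 with CsA against restimulated iTregs, and between 1 and 3 with CM-4620 against rest.

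Samples of different groups share only a replicate number: in no comparison did every pair of the same number correlate above 0.1 in its deviations, and in tTregs the correlations were between -0.395 and -0.109. Among the Tconv and iTreg groups, however, all pairs of replicate 3 correlated positively. Their values ran from 0.0678 (resting with activated Tconvs) to 0.238 (CM-4620 with CsA), and what these libraries share was not tested. The fit with the replicate number as a block moved no count of called receptor genes (8, 6 and 7 in Tconvs, in tTregs and for their difference, 5 on restimulation of iTregs, 2 with CM-4620 and 1 with CsA). Depth limits *Il1rl1* outside tTregs, where 1 to 12 reads were counted. It also limits *Il12rb2* in activated tTregs (7 to 39 reads) and *Il18rap* in restimulated iTregs (16 to 26 reads). The tTreg groups were the shallowest, with a median of 7582032 reads at rest and 7131717 after activation. The medians of the other groups lay between 10740852 and 12929458, and the part of depth in the differences of tTregs was not tested.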
